A study of Mus musculus with 18 samples.

Results

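The mitochondrial ribosomal proteins (MRPs) are the nuclear-encoded proteins of the ribosome that works inside mitochondria. They were taken as every gene whose symbol begins with Mrpl or Mrps followed by a digit, without pseudogenes, which gave 78 of the 55469 genes in the tables, 49 Mrpl and 29 Mrps genes. RNA sequencing of the ventral and lateral prostate lobes covered 18 male mice, 3 in each of 6 groups. WT mice (ELAC2+/+), KO mice (ELAC2-/-) and A537T mice (ELAC2A537T) were taken at 10 and at 30 weeks, and the strain of all is labelled C56NL/6N. In the KO line, Cre recombinase under the probasin (Pb) promoter removes exon 8 of Elac2 in prostate epithelial cells, so that other cells of the organ keep the gene. The A537T line carries the missense change in every cell, as homozygotes. ELAC2 is the endonuclease that trims the 3′ end of precursor tRNAs in the nucleus and in mitochondria, and the comparison of each line with WT mice of its age asks how the RNA of the prostate differs when it is lost or altered.

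The mitochondrial ribosome translates the few mRNAs of the mitochondrial genome, all of which code for subunits of the respiratory chain complexes and of the ATP synthase. Its rRNAs, 12S (mt-Rnr1) and 16S (mt-Rnr2), are transcribed from mitochondrial DNA, while each of its proteins is encoded in the nucleus, made in the cytosol and imported. Compared with the bacterial ribosome it has more protein and less rRNA, and some of its proteins have no bacterial counterpart. Tissues rich in mitochondria, such as heart and skeletal muscle, are known for high MRP expression.

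Of the 78 genes, 46 were listed as coding for proteins with a homologue in the bacterial ribosome and 31 as specific to mitochondria. Mrps18a and Mrps18b, paralogues of bacterial S18 like Mrps18c, were counted among the 31. The remaining gene, Mrps36, codes for a protein now known as a subunit of the 2-oxoglutarate dehydrogenase complex rather than of the ribosome. Gene symbols do not always give the subunit, since the proteins of Mrps30 and Mrps18a sit in the large subunit.

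Each library is named here by its number in the tables, which do not give its group. Libraries found in both tables of an age were taken as WT and the others as the mutant of the table, so the group of each library rests on this reading. Values are normalized counts, which are gene counts divided by a size factor for the library, within a table that holds the 3 libraries of a mutant group and the 3 WT libraries of that age. Both lines at an age therefore share their WT libraries. Libraries held 6569642 to 11225281 recovered reads (median 8586877), of which 0.0994 to 0.139% came from the 78 genes. All 78 had reads in every library, from 24 to 579 per gene, and all passed the filter for testing, a mean normalized count of at least 10.

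The libraries differed in their content of other tissues. At 10 weeks, a list of 29 skeletal muscle genes made up 4.03, 6.72 and 13.05% of the normalized counts of the WT libraries 10AF, 11AF and 12AF, 0.0673, 2.11 and 0.0624% in KO and 4.46, 3.30 and 1.57% in A537T. None of the 29 genes was at 0 in WT or A537T, while 1, 0 and 7 were in KO. A list of 10 seminal vesicle genes ranged from 0.515 to 4.81% in WT at 10 weeks and from 6.71 to 10.4% in KO. In A537T at that age they made up 0.613, 0.526 and 0.391%. At 30 weeks these genes made up 0.37 to 0.624% in WT, 8.71, 0.659 and 6.59% in KO and 7.50, 0.515 and 9.36% in A537T, while skeletal muscle genes stayed at or under 0.0745%. Shares under 1% in WT, and in the mutants at 30 weeks, came largely from 1 gene of the list, 9530002B09Rik. It had 55358 normalized counts in WT library 1AF and 54316 in KO library 5AF. Svs2, a defining gene of the seminal vesicle, had 3.22 and 2.20 there and 493750 in KO library 4AF. None of 9 prostate epithelium genes was at 0 in any library, but their share ranged from 0.454% in KO library 15AF to 4.74% in KO library 5AF. Of these, Spink1 had 36657, 164871 and 256019 normalized counts in WT and 36647, 27369 and 53.7 in KO at 10 weeks. At 30 weeks 9 of 9 had a negative fold change in KO and 8 of 9 in A537T. Adipocyte genes had a negative fold change in KO at 10 weeks in 6 of 6 (median −1.10) and a positive one in 6 of 6 in each other comparison, and smooth muscle genes had a positive one in 6 of 7 in both lines at 10 weeks. In whole tissue, fewer cells of a type cannot be told apart from less RNA per cell.

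Elac2 itself had 124, 142 and 166 normalized counts in WT and 119, 111 and 116 in KO at 10 weeks, with every KO library below every WT library. At 30 weeks it had 150, 153 and 194 in WT and 98.4, 151 and 122 in KO, where the groups overlapped. The counts of the gene do not separate transcripts with exon 8 from those without it. In A537T it had 173, 165 and 158 at 10 weeks and 121, 189 and 114 at 30 weeks, overlapping with WT at both ages.

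To compare genes with each other, reads were expressed per kb of transcript and per 1000000 reads. In the 6 WT libraries, the median over the 78 MRP genes was 10.4, compared with 3.55 over the 17053 protein-coding genes with a read, 36.5 over nuclear-encoded subunits of complex I and 260 over cytosolic ribosomal proteins. Genes with Mrpl and Mrps symbols had similar medians, 10.3 and 10.9, and genes with a bacterial homologue had 11.5 compared with 7.89 for those specific to mitochondria. These levels are a description with no test.

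The mean mRNA levels of the 78 genes in the 6 WT libraries of both ages spread over a 23.1-fold range. Mrps21, which codes for a small protein with a bacterial homologue, was highest at 55.8 ± 12.2 (SD, n = 6), followed by Mrpl33 at 43.3 ± 12.2, Mrpl42 at 40.9 ± 17.4, Mrpl30 at 28.4 ± 5.02 and Mrpl52 at 27.9 ± 6.01. The ranges of neighbours in this order overlapped. At the other end were Mrpl1 at 3.39 ± 0.524, Mrps35 at 2.88 ± 0.360, Mrpl35 at 2.76 ± 0.680, Mrpl19 at 2.56 ± 0.972 and Mrpl47 at 2.42 ± 0.925. The lowest WT value of Mrps21 (41.5) lay above the highest of every one of these 5 genes. The annotated transcripts of the 5 lowest genes were 3364 to 5000 bases long and those of the top 5 were 418 to 969 bases, so the transcript chosen for each gene enters these levels. Skeletal muscle genes made up 4.03 to 13.05% of the counts in WT at 10 weeks, so the levels are not of prostate cells alone. Mrpl42 averaged 52.5 in WT at 10 weeks and 29.3 at 30 weeks, where Mrpl52 averaged 31.5.

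**Figure D1:**
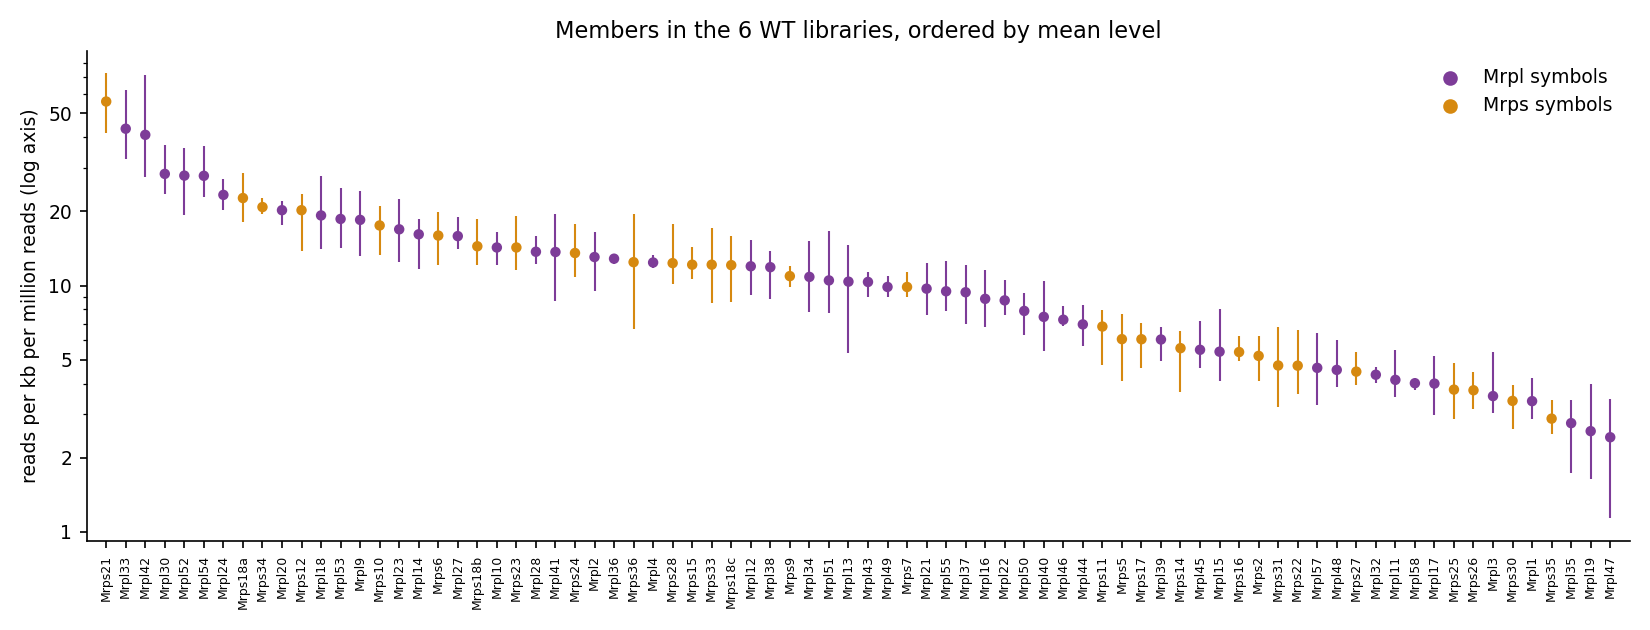
Levels of the 78 MRP genes in the 6 WT libraries of both ages, in reads per kb of transcript per 1000000 reads on a log axis, ordered by mean. Points are means and lines run from the lowest to the highest library, with Mrpl symbols in purple and Mrps symbols in orange, and the means run from 55.8 for Mrps21 down to 2.42 for Mrpl47.

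The 78 genes lie on 17 chromosomes. Their annotated transcripts were short, with a median of 1302 bases compared with 2565 over all protein-coding genes. A protein-coding gene on the opposite strand started within 1000 bases upstream of 18 of them, or 23.1%, compared with 6.79% of the 21951 protein-coding genes. In such pairs the starts were often very close. Mrpl54 and Apba3 started 26 bases apart, Mrps18c and the helicase gene Helq 29 bases, Mrps34 and Eme2 29 bases, Mrpl30 and Mitd1 66 bases, and Mrps27 and Ptcd2 81 bases. Mrps12 shared its upstream region with Sars2, the gene for the mitochondrial seryl-tRNA synthetase, 172 bases away.

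Nuclear genes for mitochondrial proteins are known for promoter sites of NRF1, of the ETS factor GABPA and of YY1. Promoter windows from RefSeq (GRCm38.p6), of 250 bases before to 50 bases after the start, were given for 69 of the 78 genes as 75 windows. Both strands were searched for CCGGAAG (the ETS core), AAGATGGC (the YY1 core) and the NRF1 core, whose letters stand in capitals in the Mrpl9 sequence below, and also for the NRF1 core with 1 base left free, as in the Mrpl12 sequence, which includes every match of the strict core. CCGGAAG was found in 34.7% of the MRP windows, compared with 11.6% of the 21262 windows of protein-coding genes and 8.86% of all 32851 windows. AAGATGGC was in 16% compared with 3.05% and 2.75%, the NRF1 core with a free base in 17.3% compared with 6.38% and 4.60%, and the strict NRF1 core in 4% compared with 1.33% and 0.971%. A match describes the letters only, and no factor was measured at these sites.

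The sequences below are the 120 bases before the start of 8 genes, 5′ to 3′ on the strand of the gene, with matches in capitals. They show, in order, Mrpl42 and Mrps36, which had the largest negative fold changes in KO at 10 weeks, Mrpl22 and Mrpl52, which lay on opposite sides of WT at that age, Mrpl51 and Mrps18a with the ETS core, and Mrpl12 and Mrpl9 with the NRF1 core, with a free base in Mrpl12.
Mrpl42: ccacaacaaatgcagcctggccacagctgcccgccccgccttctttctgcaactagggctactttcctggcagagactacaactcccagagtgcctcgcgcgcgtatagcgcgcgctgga
Mrps36: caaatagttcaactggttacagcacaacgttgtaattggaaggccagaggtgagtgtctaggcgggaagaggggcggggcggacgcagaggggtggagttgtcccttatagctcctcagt
Mrpl22: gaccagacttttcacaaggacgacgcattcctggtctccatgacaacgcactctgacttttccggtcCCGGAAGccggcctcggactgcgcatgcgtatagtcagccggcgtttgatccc
Mrpl52: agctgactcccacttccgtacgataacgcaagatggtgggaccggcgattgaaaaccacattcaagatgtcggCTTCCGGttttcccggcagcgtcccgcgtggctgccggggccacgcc
Mrpl51: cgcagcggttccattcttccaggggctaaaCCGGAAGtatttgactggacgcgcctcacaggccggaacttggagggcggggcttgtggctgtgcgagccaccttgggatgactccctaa
Mrps18a: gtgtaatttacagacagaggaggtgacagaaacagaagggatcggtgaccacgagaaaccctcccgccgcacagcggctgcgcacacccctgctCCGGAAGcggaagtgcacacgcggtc
Mrpl12: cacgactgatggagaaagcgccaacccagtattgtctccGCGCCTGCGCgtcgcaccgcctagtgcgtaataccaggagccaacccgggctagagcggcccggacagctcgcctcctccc
Mrpl9: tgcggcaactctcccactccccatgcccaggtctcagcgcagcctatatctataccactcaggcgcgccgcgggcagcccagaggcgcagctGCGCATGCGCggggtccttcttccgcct

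In GRCm38.p6 these are chr10:95501950-95502069 on the reverse strand for Mrpl42 and chr13:100744660-100744779 on the reverse strand for Mrps36. The windows of Mrpl22 (chr11:58171544-58171663), Mrpl52 (chr14:54426789-54426908), Mrpl51 (chr6:125192080-125192199), Mrps18a (chr17:46110884-46111003), Mrpl12 (chr11:120484517-120484636) and Mrpl9 (chr3:94443216-94443335) are on the forward strand. None of the searched motifs lies in the 120 bases shown for Mrpl42 and Mrps36. The searched window of Mrpl42 does hold the YY1 core, from base 28 after the start, outside the bases shown. The log2 fold changes in KO at 10 weeks had a median of −0.39 over the 26 genes with an ETS core in their window and of −0.34 over the 43 with a window and no ETS core, so genes with and without the motif had similar medians.

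In KO prostates at 10 weeks most MRP genes had lower transcript levels than in WT, but 0 of them passed the test. The median log2 fold change of the 78 genes in KO was −0.35, compared with −0.01 over the 15089 genes tested. Of the 78, 70 had a negative fold change, which is 89.7% compared with 50.6% of all genes. With limma, 0 MRP genes passed an adjusted p of 0.05, where 0% of all genes were called, and the smallest adjusted p of an MRP gene was 0.183. At an unadjusted p under 0.05, 15 MRP genes were lower (19.2%) and 1 was higher (1.28%), compared with 11.5% and 7.97% of all genes tested. In 22 genes (28.2%) every KO library lay below every WT library, compared with 14.3% of all genes, and in 2 (2.56%) every KO library lay above, compared with 11.7%. On recovered reads, edgeR called 0 genes and DESeq2 called 715 (4.74%), of which 1 was an MRP gene, Mrpl42.

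The spread among the WT libraries was as wide as the difference. The mean of log2(normalized count + 1) over the 78 genes was 6.74, 7.03 and 7.39 in the WT libraries 10AF, 11AF and 12AF and 6.64, 6.75 and 6.66 in KO, so that KO library 14AF lay above WT library 10AF. The order of the WT libraries was that of their skeletal muscle share and of their prostate epithelium share (0.797, 2.303 and 2.665%). It was the reverse order of their seminal vesicle, smooth muscle and adipocyte shares. Of the 78 genes, 52 (66.7%) increased from 10AF to 11AF to 12AF, compared with 27.1% of all genes tested. When all 18 libraries were scaled together, 60 of the 78 (76.9%) had their highest value in 12AF, compared with 17.7% of all genes. Without 12AF, the median in KO at 10 weeks was −0.19. Without 10AF, the WT library lowest in MRP level and in muscle share, it was −0.54. Limma then called 17 of the 78 MRP genes, a share near that of all genes (2886 of 15044, 19.2%). With a skeletal muscle score as covariate the median was −0.15. The mean log2 level of the muscle genes was at most 10.58 in KO and at least 11.47 in WT. The score thus separates the groups, and this fit cannot tell muscle content and genotype apart. The share of seminal vesicle genes was higher in each KO library (6.71 to 10.4%) than in any WT library (0.515 to 4.81%) as well. The part of these tissues, or of the prostate epithelium, adipocyte and smooth muscle genes, in the result was not tested.

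**Figure D2:**
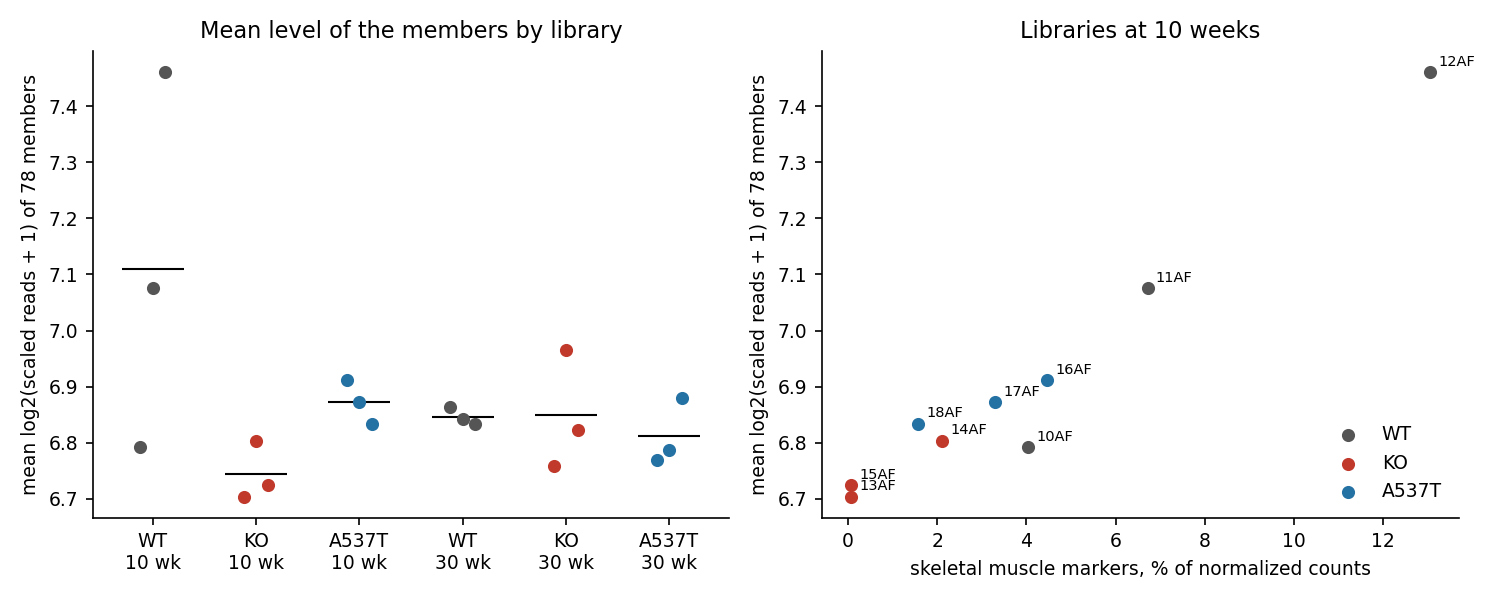
Mean of log2(scaled reads + 1) over the 78 MRP genes in each library, scaled over all 18 libraries, by group with the group mean as a line (left), and for the 9 libraries at 10 weeks against the percentage of normalized counts in 29 skeletal muscle genes (right). WT library 12AF stands highest at 7.46, with 13.05% of its counts in muscle genes, and the KO libraries 13AF and 15AF stand lowest at 6.70 and 6.72.

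The large subunit had the gene with the largest negative fold change. Mrpl42 had 182, 296 and 492 normalized counts in WT and 119, 173 and 94.9 in KO, with no overlap and the 3 WT libraries spread over more than the gap between the groups. Its log2 fold change was −1.24 ± 0.39 (SE, 3 against 3 libraries) with a limma adjusted p of 0.188, and with DESeq2 the adjusted p was 0.0328. Mrpl15, homologous to a bacterial large subunit protein, had 176, 205 and 349 in WT and 118, 157 and 116 in KO, again without overlap, and a log2 fold change of −0.85 ± 0.28 (limma adjusted p = 0.195). Mrpl13 had 108, 120 and 186 in WT and 69.6, 86.7 and 80.0 in KO, and Mrpl18 had 137, 247 and 352 in WT and 125, 159 and 121 in KO. The groups did not overlap for Mrpl13 but did for Mrpl18, and their log2 fold changes were −0.76 each, with limma adjusted p of 0.189 and 0.271.

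Among the Mrps symbols, Mrps36 stood out, the gene whose product belongs to the 2-oxoglutarate dehydrogenase complex of the citric acid cycle. It had 83.2, 81.6 and 142 in WT and 55.0, 55.0 and 38.9 in KO, so that every KO library lay below WT. Its log2 fold change was −0.996 ± 0.284 with a limma adjusted p of 0.183. The 3 pseudogenes of Mrps36 had at most 1.17 normalized counts in these libraries. Mrps17, homologous to a bacterial small subunit protein, had 221, 303 and 345 in WT and 196, 175 and 159 in KO. It ranked after the 5 largest changes but did not overlap between the groups.

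A few MRP genes lay on the other side. Mrpl52, a large subunit protein without a bacterial homologue, had 98.8, 69.1 and 104 in WT and 122, 118 and 160 in KO, and every KO library exceeded every WT library. Its log2 fold change was 0.56 ± 0.22 with a limma adjusted p of 0.241. Mrps6 had 135, 133 and 140 in WT and 163, 162 and 158 in KO, also without overlap, and a log2 fold change of 0.24 ± 0.13 (limma adjusted p = 0.332). Mrps6 is uncertain, because the sodium/myo-inositol cotransporter gene Slc5a3 lies within it on the same strand of chromosome 16, at 92058322 to 92087473 inside 92058270 to 92112227 of GRCm38, and had 1215 to 1410 normalized counts in these libraries. The next 3 positive fold changes were those of Mrps2 at 0.11, Mrpl24 at 0.09 and Mrpl37 at 0.08, and their groups overlapped.

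**Figure D3:**
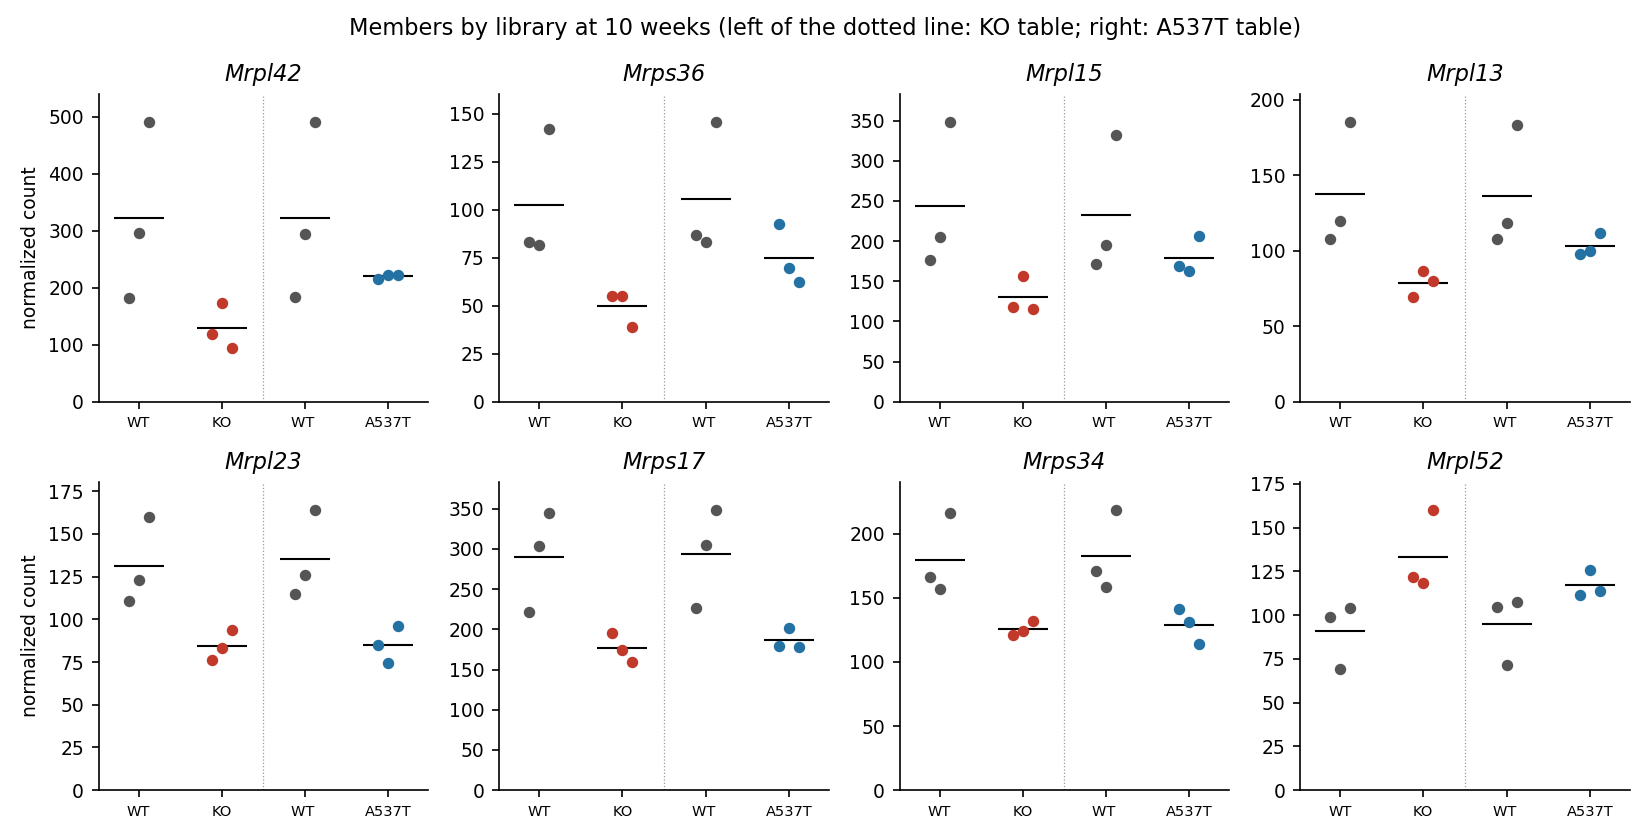
Normalized counts of 8 MRP genes in each library at 10 weeks, with the mean of 3 libraries as a line and axes from 0. The left pair of groups in each panel comes from the table of KO and the right pair from the table of A537T, which hold the same WT libraries; KO lies below WT without overlap in each gene shown except Mrpl52, where it lies above.

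Genes with Mrpl and with Mrps symbols shared this pattern. At 10 weeks the log2 fold changes in KO had a median of −0.37 over Mrpl symbols and of −0.32 over Mrps symbols. The difference between their mean log2 levels ranged from 0.02 to 0.10 in the WT libraries and from −0.03 to 0.03 in KO, so the libraries of the groups overlapped. Genes with a bacterial homologue had a median of −0.38 and those specific to mitochondria one of −0.33. The 39 genes with transcripts up to the median length had −0.50 and the 39 with longer ones −0.31. Across genes, Spearman's rho of fold change with transcript length was 0.26 over the 78 genes and 0.20 over the 13333 protein-coding genes tested, where genes share the libraries and are no replicates.

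Members with a second role or of a paralogue family overlapped between WT and KO at 10 weeks, except Mrps36 and Mrps34. In each of these, every KO library lay below WT. Mrpl12, whose protein also binds the mitochondrial RNA polymerase, had 138, 152 and 209 in WT and 141, 179 and 146 in KO. Mrpl58, also known as ICT1, releases peptides from stalled ribosomes and had 81.2, 83.3 and 111 in WT and 105, 80.8 and 94.9 in KO. Both overlapped with WT. Mrpl44, with an RNase III-like domain, had 88.0, 69.1 and 122 in WT and 73.9, 66.8 and 75.5 in KO, and Mrpl10, a protein of the stalk that recruits translation factors, had 165, 206 and 219 and 167, 176 and 162. Of the 3 paralogues of bacterial S18, Mrps18c had 44.0, 70.0 and 105 in WT and 39.5, 55.0 and 41.2 in KO, Mrps18b had 105, 172 and 171 and 98.8, 121 and 113, and Mrps18a had 152, 215 and 246 and 156, 178 and 233. All of these overlapped between WT and KO. Mrps30 had 96.9, 112 and 122 in WT and 94.5, 98.4 and 104 in KO, Mrpl41 had 53.8, 89.1 and 91.8 and 51.6, 56.2 and 51.4, and Mrps27, a pentatricopeptide repeat protein, had 58.7, 63.3 and 80.6 and 59.3, 67.9 and 67.5. These overlapped too.

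The rRNAs of the same ribosome were also compared in KO at 10 weeks. mt-Rnr1 had 74572, 49556 and 48569 normalized counts in WT and 71959, 71424 and 68891 in KO, with overlap, and a log2 fold change of 0.33 ± 0.32. mt-Rnr2 had 269937, 247492 and 307643 in WT and 222141, 239559 and 205324 in KO, where every KO library lay below WT, with −0.30 ± 0.51. Neither passed the limma test, with adjusted p of 0.569 and 0.752.

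Other lists of the translation machinery were in the same direction at 10 weeks. Of 5 further mitoribosome proteins with other symbols, all had negative fold changes in KO, with a median of −0.36, and 0 passed the limma test. Gadd45gip1, a large subunit protein, had 139, 145 and 166 in WT and 112, 116 and 78.9 in KO, without overlap. Of 39 assembly and translation factors, 29 had negative and 10 positive fold changes (median −0.18), 9 had every KO library below WT, where 14.3% of all genes did, and 0 passed. The elongation factor Tufm had 290, 352 and 338 in WT and 227, 226 and 245 in KO, and Slirp, an RNA-binding partner of Lrpprc, had 120, 109 and 233 in WT and 57.6, 91.3 and 61.7 in KO. Neither overlapped. The 82 cytosolic ribosomal protein genes had a median of −0.33, close to that of the MRP genes, and the 37 tested nuclear genes of complex I had −0.89, with 30 of 37 below WT in every KO library, compared with 14.3% of all genes.

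Of 10 genes known to regulate MRP genes, 6 had positive and 4 negative fold changes in KO at 10 weeks (median 0.08), and 2 had every KO library below WT, compared with 14.3% of all genes. Those were named after their values were seen. The coactivator Ppargc1a (PGC-1α) had 78.3, 122 and 154 in WT and 59.3, 56.2 and 60.6 in KO, and the nuclear receptor Esrra, its partner, had 242, 237 and 252 in WT and 138, 153 and 137 in KO. Their log2 fold changes were −0.95 ± 0.27 and −0.77, with limma adjusted p of 0.183 each. Ppargc1a also increased over the WT libraries in the order of their muscle share, while Esrra did not. Esrra was also below WT in every A537T library at 10 weeks, with 229, 221 and 235 in WT and 140, 202 and 204 in A537T. Gabpa had 266, 283 and 270 in WT and 296, 302 and 304 in KO, all above WT, and Nrf1 and Yy1 overlapped between the groups.

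In A537T at 10 weeks most MRP genes had a negative fold change against the same WT libraries, and 0 passed the test. The median log2 fold change was −0.22 compared with 0.01 over 15131 genes tested, and 66 of 78 genes (84.6%) had a negative value compared with 48.5% of all genes. With limma 0 MRP genes were called, with 0% of all genes called and a smallest adjusted p of 0.746. At an unadjusted p under 0.05, 3 were lower (3.85%) and 0 higher, compared with 3.67% and 2.76% of all genes. Every A537T library lay below WT in 5 genes (6.41%) and above in 1 (1.28%), compared with 6.34% and 5.58% of all genes, so these counts were near the background. edgeR called 0 genes and DESeq2 87 (0.575%), none of them an MRP gene. The mean log2 level of the 78 genes was 6.93, 6.88 and 6.83 in A537T, between the WT libraries 10AF (6.79) and 11AF (7.06). Without 12AF the median was −0.02, without 10AF −0.38, and with the skeletal muscle score as covariate 0.11, so the sign turned.

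Of the 5 genes with the largest negative values in A537T, 3 code for proteins with a bacterial homologue (Mrpl23, Mrps17 and Mrpl22) and 2 for proteins specific to mitochondria (Mrpl57 and Mrps34). Mrpl23 had 115, 126 and 164 in WT and 85.1, 74.2 and 95.8 in A537T, without overlap, and a log2 fold change of −0.65 ± 0.20 (limma adjusted p = 0.746). Mrps17 had 227, 304 and 348 in WT and 180, 202 and 178 in A537T, without overlap, and −0.63 ± 0.19. Mrpl22 had 46.6, 66.6 and 59.7 in WT and 39.4, 41.9 and 39.4 in A537T, at −0.49 ± 0.23. Mrps34 had 171, 158 and 218 in WT and 142, 131 and 114 in A537T, at −0.49 ± 0.18. In all 4 genes every A537T library lay below every WT library. Mrps34 overlaps Nme3 on the same strand at its 3′ side, so reads there could belong to either. Mrpl57, with 89.1, 144 and 213 in WT and 129, 80.9 and 90.8 in A537T, overlapped (−0.51 ± 0.34). Genes with a bacterial homologue had a median of −0.27 and those specific to mitochondria one of −0.09.

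Mrpl52 again lay on the other side, with 105, 71.8 and 108 in WT and 112, 126 and 114 in A537T. It did not overlap, and its log2 fold change was 0.33 ± 0.21 (limma adjusted p = 0.766). The other positive values were Mrps35 at 0.32, Mrps6 at 0.13, Mrps5 at 0.12 and Mrpl37 at 0.12, all with overlapping groups. Mrps5 rested on library 16AF, which had 363 normalized counts compared with 204 and 207 in the other A537T libraries and 204 to 270 in WT. Complex I genes had a median of −0.54 in this comparison, cytosolic ribosomal proteins −0.07 and the assembly and translation factors −0.16, with 0 genes called in each. mt-Rnr1 and mt-Rnr2 overlapped between the groups.

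**Figure D4:**
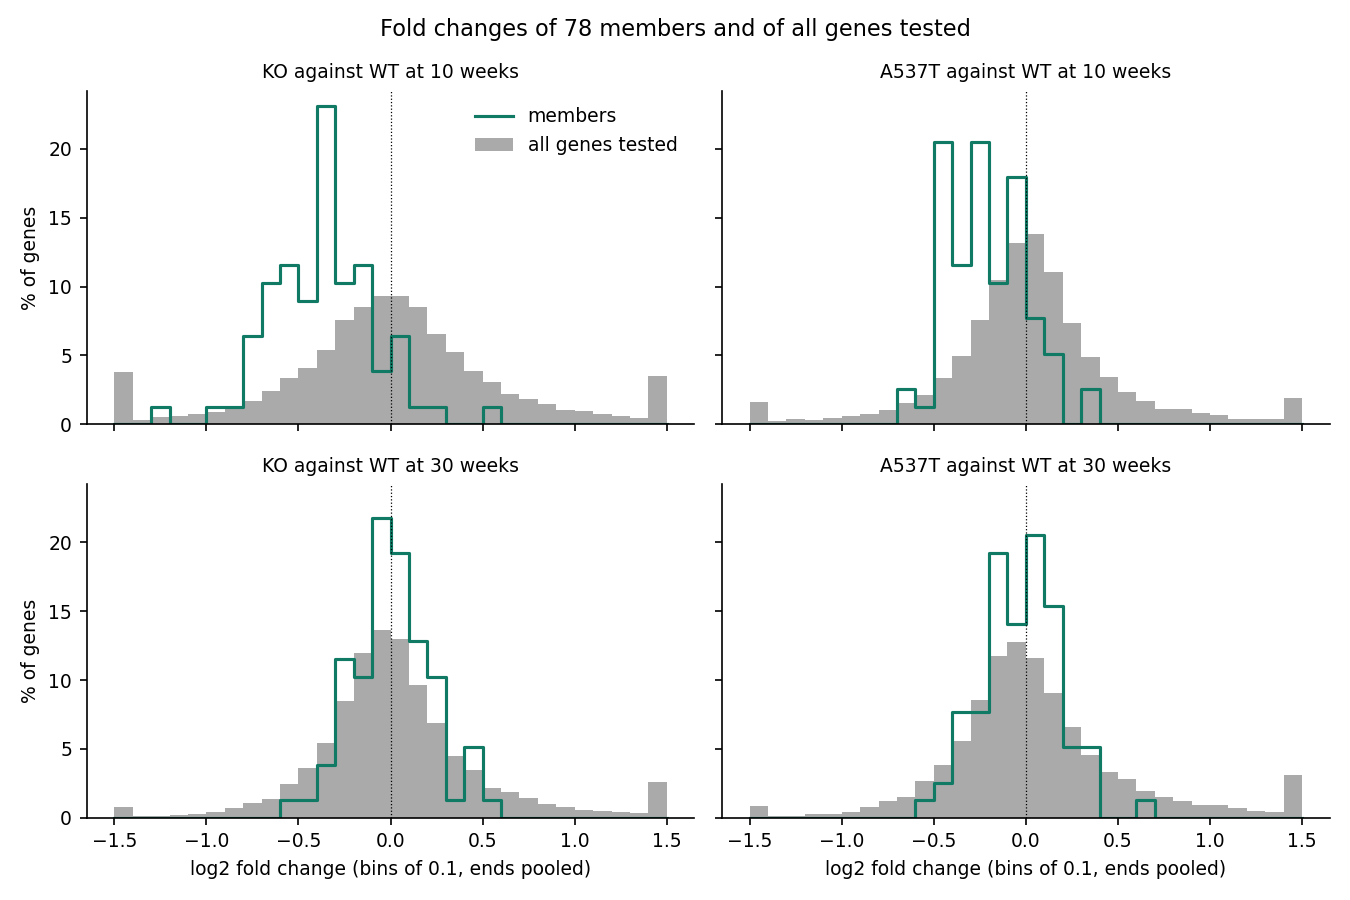
Distribution of log2 fold changes (bins of 0.1 with both ends pooled, in % of genes) for the 78 MRP genes (line) and for all genes tested (bars) in each of the 4 comparisons. The MRP genes are shifted to negative values at 10 weeks, with medians of −0.35 in KO and −0.22 in A537T, and are centred near 0 at 30 weeks in both lines.

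At 30 weeks the MRP genes as a group stood at the WT level in both lines. The median log2 fold change was 0.00 in KO and −0.01 in A537T, compared with −0.01 over all genes in each, and 39 and 41 of the 78 genes were negative (50 and 52.6%, compared with 50.9 and 50.7% of all genes). With limma 0 MRP genes were called in either line, with 0% of the 14729 and 14789 genes tested. edgeR called 0 genes, and DESeq2 called 285 in KO (1.93%) and 472 in A537T (3.19%), none of them an MRP gene. At an unadjusted p under 0.05, 3 MRP genes were higher and 2 lower in KO (3.85 and 2.56%, compared with 5.56 and 5.41% of all genes), and 2 and 2 in A537T (2.56% each, compared with 7.35 and 6.28%). Groups did not overlap in 7 genes above and 7 below in KO (8.97% each, compared with 7.92 and 8.41%) and in 4 above and 7 below in A537T (5.13 and 8.97%, compared with 9.18 and 9.40%). The mean log2 level of the genes ranged over 6.88 to 6.91 in WT, 6.81 to 7.01 in KO and 6.83 to 6.94 in A537T, a narrower spread than among WT at 10 weeks. With a seminal vesicle score as covariate, the median in KO at 30 weeks was 0.12. Libraries 5AF of KO and 8AF of A537T had 2.20 and 2.89 normalized counts of Svs2, within the range of WT and far below the other mutant libraries. Without 5AF limma called 944 genes in KO, and without 8AF 1224 in A537T, with 0 MRP genes in each. In A537T the 4 tested genes of plasma and B cells were also above WT in every library, with a median log2 fold change of 2.24, and their part in the results was not tested.

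Genes with the largest fold changes at this age lay on either side of WT, and the shares without overlap were near those of all genes. Mrps27 had 80.4, 76.0 and 87.1 normalized counts in WT and 54.1, 60.2 and 48.9 in KO, without overlap, and a log2 fold change of −0.57 ± 0.17 (limma adjusted p = 0.393). In the A537T table it had 76.2, 71.1 and 83.1 in WT and 46.2, 67.5 and 60.2 in A537T, also below WT in every library, at −0.41 ± 0.20. The WT libraries of these comparisons are the same. At 10 weeks the groups overlapped for Mrps27 in both lines.

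In KO at 30 weeks, Mrps34 had 158, 174 and 160 in WT and 129, 145 and 108 in KO, below WT in each library as at 10 weeks, with −0.37 ± 0.15 (limma adjusted p = 0.439). Mrpl35, Mrps5 and Mrpl38 had log2 fold changes of −0.43, −0.39 and −0.33 and overlapping groups. Mrps31 had 50.7, 55.3 and 58.4 in WT and 84.9, 74.2 and 81.4 in KO, the largest positive value at 0.54 ± 0.16 (limma adjusted p = 0.396). Mrpl40, which starts 175 bases from Hira on the opposite strand, had 74.0, 76.0 and 61.4 in WT and 88.6, 112 and 90.7 in KO, at 0.45 ± 0.18. Neither Mrps31 nor Mrpl40 overlapped with WT. Mrpl34 (0.45 ± 0.20) and Mrpl23 (0.43 ± 0.15) did not overlap either, and Mrps6 (0.42 ± 0.23) did. Of the S18 paralogues, Mrps18a had 142, 157 and 172 in WT and 208, 179 and 175 in KO and every KO library lay above WT. Mrps18c had 75.59, 51.84 and 74.25 in WT and 81.17, 79.3 and 75.6 in KO, where the lowest KO and the highest WT value were nearly equal, while Mrps18b had 134, 134 and 127 and 123, 115 and 125, all below.

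In A537T at 30 weeks, Mrps17 had 275, 227 and 315 in WT and 212, 184 and 198 in A537T, below WT in each library as at 10 weeks, with −0.45 ± 0.15 (limma adjusted p = 0.306). Mrpl47 had 91.4, 36.7 and 87.1 in WT and 37.2, 28.9 and 87.6 in A537T. It had the largest negative log2 fold change, −0.53 ± 0.50, but its values fell into a high and a low range in both groups. Mrpl14 and Mrps5 had −0.40 and −0.36 and overlapped. Mrpl12 had 105.9, 129.6 and 116.8 in WT and 143, 153 and 151 in A537T, above WT in every library, at 0.35 ± 0.14 (limma adjusted p = 0.348). Mrps6, uncertain as above, had 91.4, 126 and 101 in WT and 144, 132 and 218 in A537T, at 0.60 ± 0.23, beside Slc5a3 with 1053, 1481 and 1306 in WT and 1481, 1632 and 1443 in A537T. Mrpl40 had 73.0, 75.7 and 61.4 in WT and 78.4, 86.8 and 102 in A537T, at 0.34 ± 0.18. The groups did not overlap for Mrps6 and Mrpl40, and they did for Mrpl13 (0.33) and Mrpl37 (0.32). Mrpl58 was below WT in every A537T library, with 93.0, 104 and 96.0 against 83.4, 84.8 and 78.9. Mrpl10 had 251, 250 and 224 in WT and 192, 224 and 159 in A537T. Its lowest WT and highest A537T value were nearly equal.

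**Figure D5:**
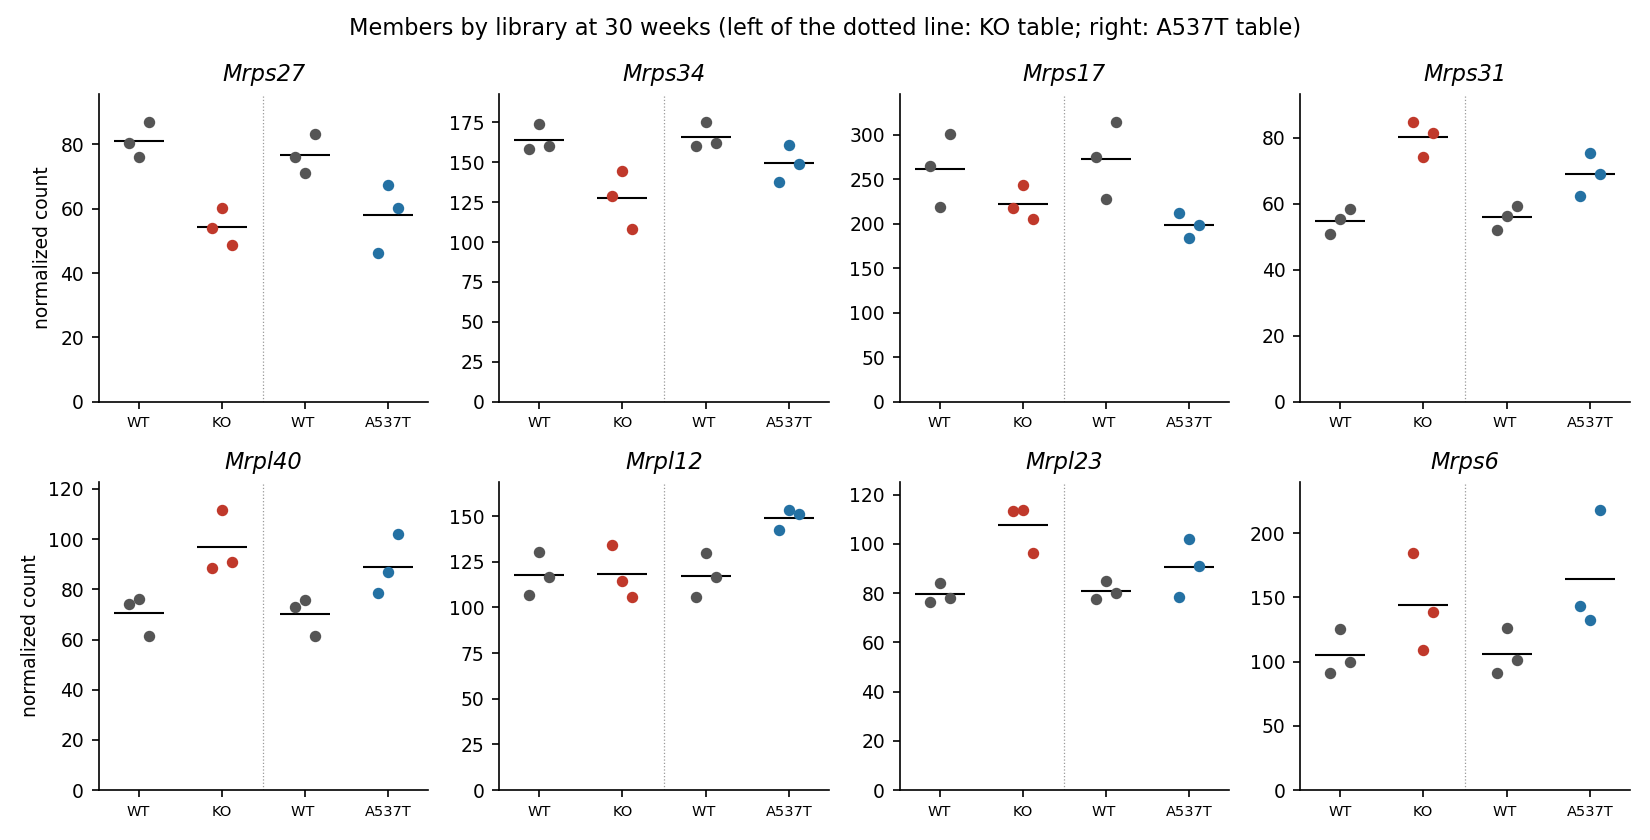
Normalized counts of 8 MRP genes in each library at 30 weeks, with the mean of 3 libraries as a line and axes from 0. The left pair of groups in each panel comes from the table of KO and the right pair from the table of A537T, with the same WT libraries; Mrps27 lies below WT in both lines, and Mrps31 and Mrpl40 lie above WT in both.

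Of the factors and regulators at 30 weeks, Nsun4, an rRNA methyltransferase needed for assembly of the ribosome, had 77.2, 74.9 and 89.1 in WT and 40.6, 57.3 and 60.5 in KO, and in A537T 58.3, 56.9 and 54.8 beside WT values of 69.8, 68.8 and 81.2. Neither line overlapped with WT. Esrra had 255, 317 and 202 in WT and 147, 159 and 136 in A537T, without overlap, and in KO its values overlapped with WT. Nsun4 and Esrra were named after their values were seen. Of the 39 factors, 2 lay below WT in every KO library and 3 in every A537T library, compared with 8.41 and 9.40% of all genes. Above WT lay 2 and 0, compared with 7.92 and 9.18%. Of the 10 regulators, 1 lay above in KO and 1 below in A537T. Both rRNAs overlapped between the groups in either line. Complex I genes had medians of 0.04 in KO and −0.06 in A537T, and cytosolic ribosomal proteins 0.01 and −0.13, with 0 genes called by limma in each.

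The fold changes at 10 and 30 weeks of a line, which share no library, showed little relation gene by gene. Their Pearson r over the 78 genes was 0.09 in KO and −0.02 in A537T, and 41 and 39 of 78 genes had the same sign at both ages. When all libraries were scaled together, which gives a description with no test because the groups of each age were processed in separate tables, the mean log2 level in WT ranged over 6.79 to 7.46 at 10 weeks and 6.83 to 6.86 at 30 weeks, and the medians of the change from 10 to 30 weeks were −0.27 in WT, 0.09 in KO and −0.06 in A537T. The WT value rests on the spread at 10 weeks, where 10AF (6.79) lay below all WT libraries at 30 weeks.

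Across the 18 libraries most MRP genes followed a common profile. The correlation (Pearson r) of the log2 level of a gene with the mean of the other 77 had a median of 0.64, and 55 genes had r over 0.5. Mrpl33, Mrpl18 and Mrpl42 were most alike the mean, with r of 0.92, 0.90 and 0.90, and each had its highest value in 12AF and its lowest in KO library 15AF. The least alike were Mrpl52 (−0.31), Mrps6 (−0.09) and Mrpl24 (−0.02). The libraries share their depth, tissue content and scaling, so these values only describe them.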

How the data were processed

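RNA from 18 mice was sequenced by the authors after TruSeq preparation of total RNA on NovaSeq. Per their methods, reads were trimmed with Trim Galore 0.4.1 and cutadapt 1.18, aligned with STAR 2.7.3a to GRCm38.p6 with nuclear mitochondrial sequences masked, quantified by strand with Salmon and imported for DESeq2 1.26. The deposited signal is the normalized count that the authors made, that is gene counts divided by a size factor within a table of 6 libraries. The authors' own comparisons, also deposited as log2 fold changes and s-values, gave no result here.

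Columns carry a library number with no group or replicate, and were assigned to groups only. Columns present in both tables of an age were taken as WT. The line and age of the other columns were taken from the table, identified by its mean per gene, which was matched to the mean expression in the authors' comparison of that line and age. The labels themselves do not make this assignment. Where a gene averaged 10 or more in a table, limma 3.58.1 (eBayes with a mean trend, two-sided) was applied to log2(normalized count + 1) in R 4.3.3, adjusted by Benjamini-Hochberg over all genes, threshold 0.05, a test for values on a normalized scale. Fold changes are on that scale and understate those of low genes. Whole reads were recovered from the steps of the values (at least 99.99% whole within 0.1 read) and used for edgeR 4.0.16 and DESeq2 1.42.0 as alternatives. In 4 of the columns the size factor is so near 1 that the recovery could not be checked by steps alone. The limma SE and p-values weigh a difference against the spread between the 3 samples of a group. For each gene, limma draws that spread towards a trend over all genes. An SE can therefore be wider or narrower than the values of the gene alone would give.

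Positions come from GENCODE vM21 (GRCm38), where 55107 of the 55469 gene IDs matched without version. The script was tested on simulated data. The genes, the marker lists and the tests were chosen with earlier results of these data known. Genes named are the 5 largest fold changes of each sign in each comparison, the 5 highest and lowest levels, genes with a second role or of a paralogue family, Elac2, the rRNAs, and the genes most and least alike the mean. Genes of the other lists that are named, such as Gadd45gip1, Tufm, Slirp, Nsun4, Ppargc1a and Esrra, and Mrps17 in KO at 10 weeks, were chosen after their values were seen. Alternatives were pseudocount 8, minimum means of 1 and 100, quantile normalization, equal totals per library, edgeR, DESeq2, limma without the trend, a marker score as covariate and leaving out each library.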

Additional observations from a re-analysis of the deposited data

Results flagged for a closer look

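Mrpl23, a large subunit protein with a bacterial homologue, lay on opposite sides of WT at the 2 ages in KO. At 10 weeks it had 111, 123 and 160 normalized counts in WT and 76.5, 83.1 and 93.7 in KO, every KO library below WT (log2 fold change −0.62). At 30 weeks it had 76.4, 84.1 and 78.2 in WT and 113, 114 and 96.5 in KO, every KO library above WT (0.43). The fold changes differ by 1.05 on the log2 scale, and this difference between the ages was not tested. The KO values were 76.5 to 93.7 at 10 weeks and 96.5 to 114 at 30 weeks, without overlap. The WT values were higher at 10 than at 30 weeks, also without overlap. The ages were normalized separately, so their counts are not on a common scale. The pseudogene Mrpl23-ps1 had at most 8.91 normalized counts in these libraries. Groups of 3 libraries are too small for a test of single outlying samples.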

How the results depend on the processing

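The number of MRP genes called was 0 under each alternative in all comparisons, with these exceptions in KO at 10 weeks, where DESeq2 called 1 and leaving out single libraries gave 0 to 17. Of all genes tested there, DESeq2 called 4.74% and limma without 10AF called 19.2%. The 17 of 78 MRP genes called without 10AF are a share near the latter. The medians kept within the spread of the libraries under 57 of 60 alternatives. This spread, the pooled SD of the library means, was 0.236 in KO and 0.2275 in A537T at 10 weeks. At 30 weeks it was 0.0741 and 0.0414. At 10 weeks it was large beside the medians, so a move to −0.018 in A537T counted as within it. The medians that left the spread were 0.11 in A537T at 10 weeks with the skeletal muscle score as covariate, 0.12 in KO at 30 weeks with the seminal vesicle score and −0.086 in A537T at 30 weeks with quantile normalization. Leaving out single libraries gave medians at 10 weeks from −0.54 (without 10AF) to −0.19 (without 12AF) for KO and from −0.38 to −0.018 for A537T. Scaling to the same total moved the median of all genes at 10 weeks to 0.20 in KO and 0.15 in A537T. The MRP medians were then −0.14 and −0.08, with 56 and 49 of 78 negative, and their distance from the median of all genes was −0.35 and −0.23, the same as before. Among the named genes, 8 values turned sign, all in A537T or KO at 10 weeks and near 0 in all but 2. With the muscle score Mrps2 was −0.0132, Mrpl24 −0.0016 and Mrpl57 0.13. Leaving out single libraries gave −0.016 (without 15AF) to 0.20 for Mrps2, also −0.0085 without 10AF, −0.0045 (without 15AF) to 0.15 for Mrpl24, −0.0015 (without 14AF) to 0.14 for Mrpl37, and −0.15 (without 16AF) to 0.26 for Mrps5. The causes were not tested. The gene called with DESeq2 was Mrpl42. The 17 called without 10AF were Mrpl13, Mrpl15, Mrpl16, Mrpl17, Mrpl18, Mrpl23, Mrpl30, Mrpl33, Mrpl41, Mrpl42, Mrpl54, Mrpl55, Mrps14, Mrps17, Mrps18b, Mrps21 and Mrps24. No paired analysis was possible because the columns carry no replicate numbers. Depth limits each gene to 24 to 579 reads per library.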
